A study of Homo sapiens with 66 samples.

Results

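MV-4-11 is a cell line from a monocytic acute myeloid leukemia (AML M5) that carries the KMT2A-AFF1 fusion and an internal tandem duplication in the receptor kinase gene FLT3. Its response to etoposide was measured in 6 of the 66 RNA-seq libraries of the series, which are 2 of its 22 groups, and these were taken by the cell line and treatment in the labels. The untreated group (3 libraries) received media alone and the etoposide group (3 libraries) received 1.33 µM etoposide, the IC50 of this cell line, for 24 hours. Cells of 3 wells were pooled for each RNA sample, so that each library averages cultures of 1 cell line. The IC50 was set with a viability assay on separate cultures, and the viability of the sampled cultures was not analysed here. In such bulk RNA, fewer cells of a kind and less RNA per cell cannot be told apart.

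Etoposide holds DNA topoisomerase II on the DNA that it has cut, which leaves double-strand breaks. The breaks activate the ATM kinase and through it the damage response, which turns on the cell cycle inhibitor CDKN1A, the ubiquitin ligase MDM2 and death genes such as FAS and BBC3. KMT2A fusions are known to keep HOXA9, MEIS1 and their partners on in leukemia cells, and a FLT3 with the internal duplication signals without its ligand to STAT5, to the MAP kinases and to MYC.

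The libraries held 18363855 to 20190353 reads on genes in the untreated group and 22921900 to 24101670 in the etoposide group. Levels are given as CPM (read counts scaled to library size, with TMM normalization over the 6 libraries), which are not corrected for gene length, and differences as log2 fold changes of etoposide over untreated (log2FC) with their standard errors (SE). A gene was called induced or repressed where the FDR was below 0.05 and the fold change above 2, by the quasi-likelihood test of edgeR on counts (adjusted p is the FDR, n = 3 libraries per group). Where 0 genes of a list were called in a direction, the exact test of edgeR and DESeq2 called 0 in that direction as well. A level of 0 reads allows for up to 0.054 CPM in the untreated and 0.041 CPM in the etoposide group, which is 3 reads over the 3 libraries and covers counting error only. Mitochondrial genes took 4.18 to 4.40% of reads in the untreated and 5.28 to 5.62% in the etoposide libraries, and 19264 to 19839 against 21649 to 21845 genes had a read. The part of these differences in the results was not tested.

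The label of the line was checked on markers of its lineage. CD33 had 108 CPM ± 1.92 untreated and 129 CPM ± 4.64 after etoposide (SD, n = 3), SPI1 had 148 and 172 CPM, CEBPA 206 and 221 CPM, and FLT3 661 and 497 CPM. HOXA9 and MEIS1 were at 60.7 and 88.7 CPM untreated. The stem cell marker CD34 was at 0.017 CPM and the monocyte marker CD14 at 0.285 CPM untreated, so that these defining markers were nearly absent. Of the 13 markers of AML, 11 passed the filter on low counts.

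Of 13998 genes tested, 1752 were called induced (12.5%) and 368 repressed (2.63%). These shares are the background for the calls in every list of genes that follows. The values of the 2 groups did not overlap in 1738 of the induced and 365 of the repressed genes, so that separate groups are common to nearly all calls. Without the minimum on the fold change, 4687 genes lay higher and 4252 lower at FDR below 0.05, together 63.9% of the genes tested. An unadjusted p below 0.05 is a looser threshold, for which no share over all genes is given. Counts of list members at it are not by themselves a trait of a list. The median log2FC of all genes tested was 0.01, and with scaling by library size alone it was 0.14. The induced genes had low levels before treatment, with a median of 0.894 CPM against 23.0 CPM over all genes tested, and they reached a median of 3.62 CPM. Of 1076 genes that passed the filter through the etoposide libraries alone, and so by being higher there, 778 were called induced. Among the 12457 genes that passed it in both groups, 973 were induced (7.81%) and 255 repressed (2.05%). The 25 lists have 530 entries, of which 461 were tested, 29 of them through the etoposide libraries alone.

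The shares of calls moved with the level, taken as the mean CPM of the 6 libraries. Of genes with a mean under 1 CPM, 34.1% were induced and 6.83% repressed. Between 1 and 10 CPM the shares were 24.3% and 3.70%, and between 10 and 100 CPM they were 5.21% and 1.38%. Above 100 CPM, unlike the other ranges, the repressed genes (40 of 2468, 1.62%) outnumbered the induced ones (20, 0.81%). Induced genes included 1412 protein coding genes and 237 lncRNAs, and repressed genes 215 and 94.

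The promoters of members of the interferon response and the mitosis lists are shown here, since the 2 lists held called genes of opposite direction and short motifs that many of their promoters share. Among the interferon response genes, 15 of 22 promoters found in the RefSeq table (GRCh38.p14, searched from 250 bases before to 50 bases after the gene start) hold the letters GAAANNGAAA, the core of the element bound by interferon-activated STAT and IRF factors. Over all 27305 promoters 3.65% hold it, on either strand. Each of the next stretches gives 100 bases upstream of the RefSeq gene start around 1 or more matches, with matches in capitals, and a match on the other strand begins with TTTC.
ISG15 (chr1:1013345-1013444, plus strand): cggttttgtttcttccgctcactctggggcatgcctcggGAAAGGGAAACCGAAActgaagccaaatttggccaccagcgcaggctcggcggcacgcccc
IFIT1 (chr10:89392475-89392574, plus strand): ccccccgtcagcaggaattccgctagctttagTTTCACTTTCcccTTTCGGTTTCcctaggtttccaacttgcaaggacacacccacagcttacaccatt
IFIT3 (chr10:89327830-89327929, plus strand): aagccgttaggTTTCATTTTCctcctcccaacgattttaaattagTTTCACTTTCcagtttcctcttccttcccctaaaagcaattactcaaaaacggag
IFI6 (chr1:27672231-27672330, minus strand): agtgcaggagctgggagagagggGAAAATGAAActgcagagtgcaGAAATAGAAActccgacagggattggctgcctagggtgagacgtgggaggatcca
Of 9 induced members of the list that had a promoter in the table, 7 held the letters, these 4 included. In ISG15 the matches overlap each other, and IFI6 has 1 more match, which starts 156 bases before its gene start, outside its stretch. This motif was chosen after the values were seen.

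Among the G2 and mitosis genes, 18 of 29 promoters hold TTTGAA, the letters of the CHR element bound by the DREAM and MMB complexes, against 15.4% of all promoters, and 23 hold CCAAT, the letters bound by NF-Y, against 35.7%. Of the 4 repressed members, PLK1, CDC20 and CENPF hold both. Both motifs are in capitals, searched over the same bases and on both strands.
PLK1 (chr16:23678789-23678888, plus strand): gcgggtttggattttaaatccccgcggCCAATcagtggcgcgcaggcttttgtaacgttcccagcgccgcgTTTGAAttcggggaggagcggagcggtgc
CDC20 (chr1:43358869-43358968, plus strand): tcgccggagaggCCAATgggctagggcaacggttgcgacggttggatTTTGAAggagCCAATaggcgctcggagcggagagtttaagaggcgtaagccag
The TTTGAA starts 29 bases before the RefSeq gene start in PLK1 and 65 bases before it in CDC20, which has 1 more outside its stretch, at 178 bases. The palindrome CACGTG, the E-box bound by MYC, was found in 6 of 19 promoters of the MYC network and ribosome biogenesis list and in 7.43% of all, and was also chosen after the values were seen. Of 3 called members of that list with a promoter found, 1 held it, RRP9. A match describes the letters and shows no binding.

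Genes of the damage response rose in part. Of 25 tested members of the damage response list, 7 were induced and 0 repressed (3 lay lower at an unadjusted p below 0.05), and the median log2 fold change was 0.41 against 0.01 for all genes tested. CDKN1A (ENSG00000124762.13, chromosome 6 from 36676460 to 36687337), the inhibitor of cyclin-dependent kinases that stops the cycle after DNA damage, was at 145, 144 and 145 CPM in the untreated libraries and 511, 545 and 519 CPM after etoposide. All etoposide libraries lay above all untreated ones, a 3.63-fold rise (log2FC 1.86, SE 0.05, adjusted p = 7.87e-17). MDM2, a ubiquitin ligase, went from 167, 167 and 155 to 391, 352 and 314 CPM (log2FC 1.11, SE 0.07, adjusted p = 5.74e-12), again without overlap. BTG2, an antiproliferative gene, had 12.1, 14.4 and 12.4 CPM untreated and 49.3, 53.3 and 47.7 CPM treated (log2FC 1.95, SE 0.09, adjusted p = 4.62e-14). TP53I3, a quinone oxidoreductase gene, had the largest log2FC of the list, from 2.47, 2.79 and 2.35 to 19.4, 22.0 and 18.05 CPM (log2FC 2.97, SE 0.13, adjusted p = 5.48e-14). TP53INP1 followed with 4.67, 5.24 and 4.17 and 31.2, 25.4 and 25.6 CPM (log2FC 2.55, SE 0.12). In all of these genes the groups were separate.

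FAS and FDXR were the other induced members. FAS, the death receptor, rose from 4.77 to 12.3 CPM (log2FC 1.37, SE 0.14) and FDXR, a mitochondrial reductase, from 52.3 to 119.6 CPM (log2FC 1.19, SE 0.08). BBC3, which encodes the death protein PUMA, had a log2FC of 0.89, GADD45A one of 0.69 and BAX one of 0.14, and none of these passed the fold change minimum. TNFRSF10B, the TRAIL receptor, had 185, 180.5 and 175 CPM untreated and 186, 189 and 161 CPM treated, values that overlap, and it had the most reads of the death receptor list (log2FC -0.01, SE 0.06). The log2FC became 0.12 with scaling by library size alone and 0.05 without etoposide replicate 3.

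Inhibitors of cyclin-dependent kinases other than CDKN1A included 1 further induced gene, CDKN2B, which encodes p15 and went from 1.26, 0.798 and 0.886 to 4.64, 4.86 and 5.85 CPM (log2FC 2.37, SE 0.21, adjusted p = 2.30e-09), so that 2 of 7 were induced (median 0.27, and 2 lower at an unadjusted p below 0.05). CDKN1B was at 114 and 90.6 CPM, with a log2FC of -0.33.

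A few mitotic genes fell. Of 35 tested G2 and mitosis genes 4 were repressed and 0 induced (median -0.31), with 4 lying higher and 25 lower at an unadjusted p below 0.05 and at FDR below 0.05. CDC20 (ENSG00000117399.13, chromosome 1 from 43358981 to 43363203), the activator of the anaphase-promoting complex, was at 206, 229 and 239 CPM untreated and 68.1, 74.5 and 74.6 CPM treated (log2FC -1.63, SE 0.06, adjusted p = 1.02e-14). CENPE and CENPF, motor and matrix proteins of the kinetochore, changed from 135, 127 and 137 to 57.7, 46.2 and 49.0 CPM and from 572, 543 and 617 to 256, 209 and 242 CPM, with log2FC values of -1.39 (SE 0.07) and -1.29 (SE 0.07). PLK1 (ENSG00000166851.14, chromosome 16 from 23677656 to 23690367), the polo-like kinase of mitotic entry and spindle assembly, had 228, 236 and 255 CPM before and 108, 116 and 121 CPM after etoposide. The groups of PLK1 did not overlap, and its log2FC of -1.06 was -0.93 with scaling by library size alone, under the minimum. CCNB1, cyclin B1, had a log2FC of -0.92 (SE 0.06) and did not pass the minimum. MKI67, the proliferation antigen and the gene of the list with the most reads, was at 1053 CPM ± 40.5 untreated and 883 CPM ± 32.2 after etoposide (log2FC -0.25, SE 0.05), and CDK1 at 230.3 and 227 CPM (log2FC -0.02, SE 0.06).

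Genes of DNA replication moved in both directions by small amounts. In the G1/S and replication list 1 of 45 was induced and 0 repressed (median 0.04). At FDR below 0.05, as at an unadjusted p below 0.05, 18 lay higher and 17 lower (over all 13998 genes tested, 4687 and 4252 at this FDR). The count of induced was 2 without etoposide replicate 2, and without untreated replicate 2 or 3, and CDK6 was repressed without etoposide replicate 1. CCNE2, cyclin E2 of the G1/S transition, was the induced member, from 70.6, 63.6 and 65.9 to 171, 158 and 153 CPM (log2FC 1.27, SE 0.06, adjusted p = 3.20e-13). MCM4, a subunit of the replicative helicase with the most reads of the list, had 1447, 1423 and 1434 CPM and then 1160, 1131 and 1102 CPM (log2FC -0.34, SE 0.04), without overlap.

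No gene of break repair and no topoisomerase passed both thresholds. Of 26 tested genes for the repair of double-strand breaks 0 were called. At FDR below 0.05, 7 lay higher and 11 lower (over all 13998 genes tested, 4687 and 4252), and at an unadjusted p below 0.05 these counts were 8 and 11. PRKDC, the catalytic subunit of DNA-PK in end joining, was at 2096, 1950 and 1918 and 1650, 1546 and 1564 CPM (log2FC -0.33, SE 0.05), and FANCI, of interstrand crosslink repair, had the highest log2FC of the list, 0.42 (SE 0.05). In the 8 topoisomerases and phosphodiesterases, 0 were called, with 1 higher and 6 lower at either of these thresholds. TOP2A, the topoisomerase II of dividing cells, had 992, 917 and 954 CPM untreated and 918, 790.0 and 871 CPM treated, values that overlap in 1 library (log2FC -0.15, SE 0.05, adjusted p = 0.019). TOP2B, the form of all cells, was lower in every etoposide library, 426, 399 and 403 against 284, 252 and 256 CPM (log2FC -0.63, SE 0.06, adjusted p = 2.02e-09). TDP2, the enzyme that removes topoisomerase II from DNA ends, had 80.8, 83.2 and 79.7 and 59.0, 57.7 and 56.7 CPM (log2FC -0.49, SE 0.06). TOP1 and TOP1MT had log2FC values of -0.41 and -0.41, TDP1 -0.26, TOP3A 0.11 and TOP3B 0.18.

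Among the genes of the BCL2 family, which set the threshold of apoptosis at the mitochondria, an inhibitor and 2 promoters of death rose. Of 14 tested members of the BCL2 family 3 were induced and 0 repressed (median 0.19, the same with BCL2A1 at its bound), and 2 members lay lower at an unadjusted p below 0.05. BCL2A1 passed the filter only through the etoposide libraries, and of the 13 that passed in both groups 2 were induced (median 0.14). BCL2A1 (ENSG00000140379.7, chromosome 15 from 79960892 to 79971196), an inhibitor of apoptosis that NF-kappaB turns on, had 0 reads in the untreated libraries and 0.896, 1.20 and 0.668 CPM after etoposide, at least 17.2-fold higher than the level of 3 reads over the untreated group (adjusted p = 9.19e-07). BIK and BAD, BH3-only proteins that promote death, rose from 6.98, 7.98 and 7.56 to 15.96, 16.8 and 22.6 CPM and from 10.9, 10.5 and 11.7 to 19.3, 23.0 and 29.3 CPM (log2FC values 1.30 and 1.11). Without etoposide replicate 3, which was highest for both, BAD was at 0.94 and no longer passed. BCL2 itself was at 234 and 118 CPM (log2FC -0.98, SE 0.06, just short of the minimum), and was called repressed without etoposide replicate 1 or untreated replicate 3. MCL1, with the most reads of the family, had 243, 249 and 234 CPM and 238, 221 and 229 CPM, and the groups overlapped (log2FC -0.08, SE 0.05, which became 0.05 under scaling by library size alone).

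Death receptors and TNF family genes had 6 of 18 induced and 0 repressed (median 0.53, with 1 lower at an unadjusted p below 0.05). The induced count was 4 without etoposide replicate 2, and 4 of 16 among members that passed the filter in both groups, which leaves out TNFRSF10C and CD40. TNFSF10, the ligand TRAIL, went from 5.14, 4.96 and 5.32 to 12.6, 14.9 and 14.7 CPM (log2FC 1.45, SE 0.12, adjusted p = 6.56e-10). TNFRSF10C, a decoy receptor of TRAIL, had 0.42, 0.456 and 0.313 CPM and then 2.85, 2.99 and 3.84 CPM (log2FC 3.01, SE 0.27), and CD40 2 reads untreated and 41 after etoposide, a ratio of 15.5 (95% exact interval 4.04 to 133). In each of these the etoposide libraries were higher than all untreated ones.

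The genes of the KMT2A fusion programme lay mostly lower, by less than the minimum. Of 17 tested genes 0 were called, while 13 lay lower and 2 higher at an unadjusted p below 0.05 and at FDR below 0.05 (median log2 fold change -0.40). Over all 13998 genes tested, 4252 lay lower and 4687 higher at this FDR. The other 7 of 24 members did not pass the filter, and over all 24 in the fit of 60 libraries the median in MV-4-11 was -0.20. CDK6, a cyclin-dependent kinase of the G1 phase, was nearest to the minimum at -0.97, with 509 and 261 CPM, and was the 1 gene called repressed without etoposide replicate 1. MYB, a transcription factor of blood progenitors with the most reads of the list, had 639.6, 623 and 634 CPM untreated and 513, 478 and 447 CPM treated (log2FC -0.40, SE 0.05, adjusted p = 9.50e-07). HOXA9 was at 60.7 and 35.0 CPM (log2FC -0.79, SE 0.08) and MEIS1 at 88.7 and 74.7 CPM (log2FC -0.25, SE 0.06). The genes joined in the fusion, KMT2A (249.6, 222 and 223 CPM, then 206, 194 and 191 CPM) and AFF1 (195, 178 and 162 CPM, then 151, 137 and 141 CPM) had log2FC values of -0.23 and -0.31. Gene counts do not separate the fusion transcript from the normal alleles.

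Genes of FLT3 and STAT5 signalling moved both ways. FLT3 had 668, 659.9 and 656 CPM untreated and 540.4, 495 and 455 CPM treated, lower without overlap and with a fold under 2 (log2FC -0.41, SE 0.06, adjusted p = 1.29e-06). Of 19 tested genes of FLT3 and STAT5 signalling 3 were induced and 2 repressed, MYC and ETV4 (median -0.12, and 0.00 under scaling by library size alone). At FDR below 0.05, 7 lay higher and 6 lower (over all 13998 genes tested, 4687 and 4252), and at an unadjusted p below 0.05 these counts were 7 and 7. DUSP4 and DUSP5, phosphatases that switch off MAP kinases, rose from 6.45, 5.64 and 5.58 to 25.5, 25.1 and 33.2 CPM and from 1.89, 2.17 and 1.72 to 4.89, 6.06 and 4.55 CPM, and SOCS1, a feedback inhibitor of JAK kinases, from 2.31, 2.34 and 1.82 to 4.52, 5.62 and 6.22 CPM. Their log2 fold changes were 2.24, 1.43 and 1.34. The STAT5 target PIM1 stood at 174 and 175 CPM.

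MYC, the transcription factor of cell growth, fell, and so did part of its ribosome network. MYC was at 387, 389 and 388 CPM in the untreated and 117, 128 and 98.2 CPM in the etoposide libraries, with no overlap (log2FC -1.76, SE 0.07, adjusted p = 1.50e-14). Of 23 tested genes of the MYC network and ribosome biogenesis 5 were repressed and 1 induced. The median of -0.88 was the lowest of all lists, and 17 members lay lower at an unadjusted p below 0.05 and at FDR below 0.05. NOP16 and RRP9, nucleolar proteins of ribosome assembly, went from 107, 118 and 119 to 50.1, 55.5 and 48.2 CPM and from 73.2, 78.3 and 78.3 to 33.6, 37.7 and 31.3 CPM (log2FC -1.16, SE 0.07 and -1.16), and RRS1 and NPM1, the nucleolar chaperone, had a log2FC of -1.06 and -1.005, the latter just past the minimum. NCL, nucleolin, had the most reads of the list, with 2610, 2645 and 2670 CPM and then 1406, 1390 and 1232 CPM, just under the minimum (log2FC -0.98, SE 0.05). Without etoposide replicate 1 the repressed count was 8, NCL included, and with scaling by library size alone it was 3. The induced member MXD3, an antagonist of MYC for the partner MAX, went from 16.3, 16.8 and 17.9 to 29.3, 37.1 and 46.1 CPM (log2FC 1.14, SE 0.12, and 0.96 without etoposide replicate 3, which was highest, and which left 0 induced).

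Genes of sterol and lipid synthesis fell or lay lower. Of 23 tested genes 5 were repressed and 0 induced, with 0 higher and 20 lower at an unadjusted p below 0.05, and 0 and 19 at FDR below 0.05. The highest log2 fold change in the list was -0.02 (median -0.60). SCD, the stearoyl-CoA desaturase, fell from 916, 904 and 866 to 289, 281 and 287 CPM (log2FC -1.65, SE 0.05, adjusted p = 1.60e-16). HMGCS1, which makes HMG-CoA for cholesterol, went from 353, 327 and 244 to 111, 108 and 101 CPM (log2FC -1.53, SE 0.09), and SQLE, squalene epoxidase, from 195, 185 and 156 to 82.1, 77.2 and 72.2 CPM (log2FC -1.21, SE 0.07). INSIG1, the sterol sensor that retains SREBP, had 266, 266 and 238 and 121, 105.7 and 114 CPM (log2FC -1.18, SE 0.06), and LSS, lanosterol synthase, had a log2FC of -1.13 (SE 0.09). In each of these genes the groups stood apart.

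In the integrated stress response, the programme under ATF4 that serves amino acid supply, the called genes fell. Of 12 genes 2 were repressed and 0 induced, with 2 higher and 8 lower at an unadjusted p below 0.05 and at FDR below 0.05 (median -0.54). ATF4 itself was at 455, 501 and 504 CPM untreated and 203, 217 and 209.8 CPM treated (log2FC -1.21, SE 0.05, adjusted p = 6.03e-14). ASNS, asparagine synthetase, was at 151, 162 and 152 CPM and then 63.9, 60.3 and 57.9 CPM (log2FC -1.35, SE 0.06, adjusted p = 6.03e-14). PSAT1 of serine synthesis was at 396 and 207 CPM (log2FC -0.94, SE 0.05), and DDIT3, the transcription factor CHOP, at 12.5 and 11.8 CPM (log2FC -0.09, SE 0.12).

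Many genes of maturing monocytes rose, most from low levels. Of 21 tested genes of the monocyte and macrophage list 13 were induced and 0 repressed (1 lay lower at an unadjusted p below 0.05), with a median of 1.64. Another 9 members, CD14 and CD163 among them, did not pass the filter. S100A8, S100A9, FPR2 and 2 others passed it only through the etoposide libraries, and of the 16 that passed in both groups 8 were induced (median 1.19). With a mean of at least 5 CPM required, 7 were induced. LYZ, lysozyme, with the most reads of the list, had 374, 375 and 276 CPM untreated and 1171, 1130 and 871 CPM treated (log2FC 1.63, SE 0.10, adjusted p = 6.75e-12). ITGAM, the integrin CD11b of maturing myeloid cells, went from 4.62, 4.56 and 3.18 to 33.5, 30.4 and 32.2 CPM, 7.79-fold (log2FC 2.96, SE 0.12, adjusted p = 1.29e-14). CD86, a costimulatory surface protein, had 2.31, 1.37 and 1.51 and 20.1, 16.3 and 20.6 CPM (log2FC 3.45, SE 0.16). S100A8 and S100A9, the calgranulins of monocytes and neutrophils, went from 0.105, 0.057 and 0.313 to 9.49, 8.69 and 8.94 CPM and from 0.472, 0.342 and 0.052 to 7.41, 7.02 and 6.06 CPM, with log2FC values of 5.76 and 4.55. For FPR2, a formyl peptide receptor, 3 untreated reads and 59 treated reads gave a ratio of 14.9 (95% exact interval 4.86 to 74.3). Every etoposide library was above every untreated one in each of these genes.

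Integrins rose in part, and few granule genes or lineage regulators passed. Of 15 tested integrin and adhesion genes 6 were induced and 0 repressed (median 0.66, with 2 lower at an unadjusted p below 0.05), and 3 of the 12 that passed the filter in both groups, which leaves out 3 genes, ITGA6 and ITGB5 among them. ITGAX, the integrin CD11c, rose from 10.2, 9.97 and 8.55 to 43.2, 42.0 and 42.0 CPM (log2FC 2.15, SE 0.09), ITGB5 from 0.84, 0.969 and 0.208 to 2.65, 2.55 and 3.43 CPM (log2FC 2.10, SE 0.30), and ITGA6 from 3 to 111 reads, a ratio of 28.0 (95% exact interval 9.35 to 138). ITGAL, the lymphocyte integrin CD11a, with the most reads, was at 1246, 1251 and 1201 and 1099, 1134 and 1089 CPM (log2FC -0.15, SE 0.05). Of 9 azurophil granule genes 2 were induced (median 0.70), BPI, a bactericidal protein, from 0.105, 0.057 and 0.104 to 1.02, 0.917 and 1.09 CPM and CST7, cystatin F, from 6.82, 5.81 and 7.45 to 13.3, 13.6 and 14.6 CPM. BPI passed the filter only through the etoposide libraries, and of the 8 that passed in both groups 1 was induced (median 0.57). CST7 (log2FC 1.04, SE 0.11) did not pass without etoposide replicate 3 (1.00) or untreated replicate 2 (0.95), which leaves 1 of the list. RNASE2 had the most reads, with 122 and 204 CPM (log2FC 0.74, SE 0.06). Of 14 myeloid transcription factors 1 was induced (median 0.16), CEBPE of late granulocytes, from 2.57, 2.22 and 2.97 to 8.10, 9.81 and 10.6 CPM (log2FC 1.87, SE 0.15, adjusted p = 9.07e-10), and 2 were without etoposide replicate 1 or 2 or untreated replicate 1. SPI1, PU.1, had a log2FC of 0.22 and IRF8, a monocyte regulator, -0.68.

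Markers of other lineages rose from low levels as well, and their part in the rise of monocyte genes was not tested. Of 8 B cell markers 3 were tested and induced, among them CD79A (0.391 and 2.33 CPM) and CD79B (0.862 and 5.11 CPM), while VPREB1 and DNTT had 0 reads in all 6 libraries. Of the 7 T and NK cell markers 2 were tested and induced, NKG7 (21.7 and 56.3 CPM) and CD8A (0.054 and 1.17 CPM), with a sum of 19.6 to 24.0 CPM untreated and 50.8 to 61.9 CPM treated, and CD3G, CD2 and KLRD1 were at 0 reads. Of the 8 erythroid markers the 1 tested, KLF1, was induced (0.262 to 0.417 CPM untreated, 1.06 to 1.75 CPM treated), and the globin genes HBB, HBA1, HBA2 and HBG1 were at 0. Of the 5 megakaryocyte markers the 1 tested, ITGA2B, was induced (0.84 to 1.31 and 5.06 to 5.93 CPM), with PF4 and PPBP at 0. Of 5 tested epithelial and stromal markers (of 11) 4 were induced, COL1A1, PDGFRB, VWF and KRT8, with sums of 6.30 to 7.81 and 15.4 to 19.5 CPM, and EPCAM, KRT19, COL1A2 and DCN at 0. VWF was not called without untreated replicate 3 (0.97), nor KRT8 without untreated replicate 1 (0.96). Of the AML markers themselves 2 of 11 were induced, LYZ and KIT (0.232 and 0.952 CPM). CD79A, CD8A, KLF1, COL1A1, PDGFRB, VWF and KIT passed the filter only through the etoposide libraries.

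Many interferon response genes rose. Of 27 tested members 16 were induced and 0 repressed (15 induced in DESeq2, and 1 lower at an unadjusted p below 0.05), and the median log2 fold change was 1.03. With a mean of at least 5 CPM required 5 were induced, and 10 by glmTreat, which tests against the fold change of 2 itself. IFIT1, IFIT3, OAS3 and 4 others passed the filter only through the etoposide libraries, and of the 20 that passed in both groups 9 were induced (median 0.84). IFI6, an antiapoptotic interferon target, went from 1.99, 1.42 and 1.36 to 17.8, 19.7 and 20.8 CPM (log2FC 3.60, SE 0.15, adjusted p = 1.84e-14). IFIT3 (ENSG00000119917.13, chromosome 10 from 89327307 to 89377473), an RNA-binding antiviral protein, had 5 reads in all untreated libraries and was at 2.48, 2.07 and 2.55 CPM after etoposide (log2FC 4.63, SE 0.44, adjusted p = 7.91e-09). OAS3, a sensor of double-stranded RNA, had 3 untreated and 124 treated reads, a ratio of 31.3 (95% exact interval 10.5 to 154), and IFIT1 1 and 65 reads, a ratio of 49.3 (95% exact interval 8.54 to 1975). All groups were separate in these genes. BST2, tetherin, with the most reads of the list, was at 134, 154 and 144 and 185, 215 and 194 CPM (log2FC 0.46, SE 0.06). Of the upstream parts, STAT2 had a log2FC of 0.99, IRF9 0.69, the DNA sensor CGAS -0.21 and STING1 -0.02. IFNB1 and IFNL1, the interferons themselves, held 2 and 0 untreated reads and 1 and 1 treated ones, which is at or under 3 reads per group.

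Many cytokines and chemokines rose. Of 13 tested chemokines and cytokines 10 were induced and 0 repressed (median 2.61, 0 lower at an unadjusted p below 0.05, and 4 induced where a mean of at least 5 CPM was required), and 11 members, IL6 and CXCL1 among them, did not pass the filter. IL1B, LIF, CCL22, CXCL16 and CCL3 passed it only through the etoposide libraries, and of the 8 that passed in both groups 5 were induced (median 1.71). IL1B, the fever cytokine of monocytes, went from 0.577, 0.57 and 0.469 to 10.95, 10.7 and 11.5 CPM (log2FC 4.35, SE 0.18, adjusted p = 3.12e-14). LIF, leukemia inhibitory factor, was at 0.157, 0.057 and 0 CPM untreated and 2.85, 4.11 and 4.22 CPM treated (log2FC 5.59, SE 0.42, adjusted p = 2.25e-10). CCL22, a chemokine of macrophages, had 0.157, 0.114 and 0.104 and 1.47, 1.44 and 1.42 CPM (log2FC 3.46, SE 0.39), and CXCL16 2 untreated and 83 treated reads, a ratio of 31.5 (95% exact interval 8.44 to 264). None of these overlapped between the groups. TGFB1, with the most reads, was at 102, 97.6 and 107 and 105, 124 and 141 CPM, which overlap (log2FC 0.27, SE 0.08).

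NF-kappaB targets had 6 of 12 induced and 0 repressed (median 1.00, 0 lower at an unadjusted p below 0.05, and 1 induced by glmTreat). BCL3, a nuclear cofactor of NF-kappaB, rose from 1.84, 1.60 and 1.98 to 7.17, 8.37 and 9.98 CPM (log2FC 2.23, SE 0.17, adjusted p = 2.95e-10). NFKB2, the p100 subunit, rose from 12.7, 12.4 and 12.3 to 25.9, 29.2 and 30.1 CPM (log2FC 1.19, SE 0.09), ICAM1 from 6.35, 6.50 and 4.07 to 13.4, 13.5 and 12.9 CPM (log2FC 1.24, SE 0.14) and RELB from 3.04, 3.76 and 2.87 to 5.82, 7.06 and 7.77 CPM (log2FC 1.10, SE 0.16, and 1.00 without etoposide replicate 3, just under the minimum). TNFAIP2, with the most reads, had a log2FC of 0.95 and passed the minimum with scaling by library size alone (1.08).

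Among AP-1 and early response genes, FOSB fell. This FOS family member was the 1 called of 19, repressed from 4.62, 4.79 and 4.59 to 1.18, 0.957 and 1.67 CPM (log2FC -1.88, SE 0.20, adjusted p = 3.94e-08). The list had 0 induced (5 higher at an unadjusted p below 0.05), with NR4A1, an orphan nuclear receptor, nearest at 0.98. There were 1 or 2 induced members without etoposide replicate 1 or without any 1 untreated library, and 2 repressed without etoposide replicate 1. FOSL2, with the most reads, was at 276, 278 and 275 and 264, 261 and 268 CPM, without overlap and within a small change (log2FC -0.06, SE 0.05, 0.06 with scaling by library size alone).

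Antigen presentation genes rose in 3 of 17 cases (median 0.65, with 16 higher at an unadjusted p below 0.05 and at FDR below 0.05), HLA-DMA (1.63, 1.60 and 1.36 and 6.47, 5.74 and 4.76 CPM), HLA-DPA1 (2.26, 2.68 and 2.40 and 7.17, 8.61 and 6.10 CPM) and HLA-DPB1 (0.682, 0.855 and 0.417 and 1.71, 2.31 and 1.84 CPM), with log2FC values of 1.89, 1.58 and 1.59. HLA-DPB1 passed the filter only through the etoposide libraries, and of the 16 that passed in both groups 2 were induced (median 0.63). Counts of HLA genes are uncertain, since alleles and paralogs share sequence. CD74, the invariant chain, had 314 and 493 CPM (log2FC 0.65, SE 0.06). The count of induced was 5 or 6 without etoposide replicate 3 or untreated replicate 1 or 2. Of 14 histone genes 2 were induced and 1 repressed (median -0.05, 0.08 under scaling by library size alone), with means under 5 CPM: H2AC6 (log2FC 1.08, SE 0.17), H2BC8 (log2FC 1.13, SE 0.42) and H2BC4 (log2FC -1.30, SE 0.38). H2BC8, with 15 untreated reads, lost its call in DESeq2 (adjusted p = 0.11) and without untreated replicate 1 or 3 or etoposide replicate 2, and H2AC6 without untreated replicate 1. Without untreated replicate 1 or 3, 1 histone gene was induced. H2BC8 passed the filter only through the etoposide libraries, and of the 12 histone genes that passed in both groups 1 was induced and 0 repressed. H2AZ1, a histone variant with the most reads of the list, was at 780.0 and 561 CPM (log2FC -0.48, SE 0.05). The libraries were made from mRNA, and replication histone mRNAs lack the poly(A) tail. Of 13 mitochondrially encoded genes 0 were called, with 12 higher at an unadjusted p below 0.05 and at FDR below 0.05 (MT-CO1 8763 and 10527 CPM, 0.26).

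The genes with the largest changes over the whole transcriptome were mostly at under 1 CPM before treatment. Each gene named in this paragraph passed the filter only through the etoposide libraries, and so by being higher there. Of 1076 such genes, 778 were called induced. OLR1 (ENSG00000173391.8, chromosome 12 from 10158301 to 10172138), a receptor of oxidized lipoproteins, had 0 reads in the untreated libraries and 2.36, 2.63 and 3.38 CPM after etoposide, at least 51.8-fold higher. LY6D, a surface antigen, had 1 read against 247, a ratio of 187 (95% exact interval 33.3 to 7424), and GDF15, a stress cytokine of the TGF-beta family, had 1 read against 151, a ratio of 114 (95% exact interval 20.2 to 4550). With so few untreated reads these intervals are wide. CD6, a surface receptor of lymphocytes, went from 0.21, 0.228 and 0.261 to 9.28, 10.05 and 13.8 CPM (log2FC 5.53, SE 0.27, adjusted p = 1.95e-13), and AIF1L, an actin-bundling protein, from 0.21, 0.114 and 0.052 to 4.76, 5.18 and 7.35 CPM (log2FC 5.46, SE 0.35). OTOF, otoferlin, had 3 and 192 reads, a ratio of 48.5 (95% exact interval 16.4 to 237). MLXIPL, the glucose-responsive transcription factor ChREBP, was at 0.157, 0 and 0.156 and 4.07, 4.51 and 4.803 CPM (log2FC 5.30, SE 0.35), and SULF2, an extracellular sulfatase, at 0.052, 0.057 and 0.104 and 2.81, 3.11 and 2.80 CPM (log2FC 5.23, SE 0.38).

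Among genes with a mean of 50 CPM or more, 5 rose furthest. CYP1B1, a cytochrome P450, had 17.3, 15.7 and 16.6 CPM and then 105.8, 102 and 103 CPM (log2FC 2.64, SE 0.07, adjusted p = 7.20e-17). MYBPH, a myosin-binding protein, went from 29.7, 33.3 and 24.8 to 147, 169 and 158 CPM (log2FC 2.43, SE 0.08), and ALOX5AP, the activator of 5-lipoxygenase in leukotriene synthesis, from 25.7, 29.4 and 26.4 to 140.1, 133 and 151 CPM (log2FC 2.38, SE 0.07). FCER2, the low-affinity IgE receptor CD23, was at 19.5, 20.1 and 21.6 and 94.7, 103 and 117 CPM (log2FC 2.36, SE 0.08), and BASP1, a membrane protein, at 21.9, 21.2 and 19.5 and 86.6, 84.4 and 107 CPM (log2FC 2.15, SE 0.09). All 5 had separate groups, which the rule that named them required.

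Repressed genes changed by less, 19 of 368 by more than 4-fold against 662 of 1752 induced. RAB38, a GTPase of melanosome-type organelles, had the lowest log2FC among called coding genes of at least 1 CPM, from 2.36, 2.34 and 2.29 to 0.326, 0.319 and 0.292 CPM (log2FC -2.88, SE 0.28, adjusted p = 1.02e-08). DDN, dendrin, was at 14.2, 15.4 and 16.2 and 2.93, 3.19 and 3.55 CPM (log2FC -2.24, SE 0.12), and IGLL1, the surrogate light chain, at 7.19, 8.38 and 8.29 and 1.83, 1.83 and 2.51 CPM (log2FC -1.95, SE 0.16). TUBE1, epsilon tubulin, fell from 24.8, 25.5 and 21.4 to 7.41, 6.62 and 5.60 CPM (log2FC -1.87, SE 0.11), POLR3G, a subunit of RNA polymerase III, from 24.5, 23.7 and 23.2 to 7.86, 6.70 and 6.06 CPM (log2FC -1.79, SE 0.10). Other repressed genes were PALS2 (log2FC -1.85, SE 0.15), TBC1D30 (log2FC -1.82, SE 0.22), ADM5 (log2FC -1.78, SE 0.19) and ENSG00000280987.3 (log2FC -1.84, SE 0.15), a gene model that shares the symbol MATR3 with another, so that its reads are uncertain. Abundant repressed genes beside MYC, SCD and CDC20 were BCAT1, the branched-chain aminotransferase, from 184, 175 and 184 to 55.2, 51.2 and 53.7 CPM (log2FC -1.76, SE 0.06, adjusted p = 8.41e-16), and SLC38A5, a glutamine transporter, from 92.4, 99.8 and 102 to 29.2, 33.7 and 27.6 CPM (log2FC -1.70, SE 0.07). In every one of these genes the groups did not overlap, which the rule that named them required.

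Non-coding genes moved both ways. Of lncRNAs, 6.37% of 1476 were repressed, against 1.86% of 11563 protein coding genes, and 16.1% against 12.2% were induced, with no test of the difference. The shares of calls moved with the level, and these 2 classes were not matched for it. MIR17HG, the host transcript of the miR-17-92 cluster and a MYC target, fell from 25.5, 27.9 and 32.5 to 7.17, 7.62 and 4.97 CPM (log2FC -2.12, SE 0.13, adjusted p = 6.54e-12). BAALC-AS1 (1.73, 1.48 and 1.30 and 0.163, 0.12 and 0.084 CPM) had the lowest log2 fold change, -3.56, followed by PITRM1-AS1 (log2FC -2.21, SE 0.30), SWINGN (log2FC -2.13, SE 0.26) and the pseudogene ABCA15P (log2FC -2.09, SE 0.41). The induced ones, FAM8A4P, LINC02086, TSPEAR-AS1, SLC9A7P1 and MTMR9LP, had 1 to 4 untreated reads each and passed the filter only through the etoposide libraries. Among these, FAM8A4P went from 0, 0.171 and 0.052 to 2.52, 2.31 and 1.92 CPM.

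The genes that the study named had 2 induced and 3 repressed of 15 tested (median -0.16), and since they were chosen on these samples their count is no independent evidence. With scaling by library size alone 1 was repressed. BCL2A1 passed the filter only through the etoposide libraries, and of the 14 that passed in both groups 1 was induced and 3 repressed (median -0.21). PARP9, a mono-ADP-ribosyltransferase of the interferon and damage responses, rose from 10.2, 9.35 and 9.23 to 29.6, 26.8 and 28.1 CPM (log2FC 1.55, SE 0.09, adjusted p = 5.76e-12). SLFN11, which blocks stalled replication forks, went from 17.8, 19.0 and 20.6 to 10.4, 9.45 and 8.40 CPM (log2FC -1.02, SE 0.10, adjusted p = 2.33e-08), and was at -0.95 without etoposide replicate 3, -0.97 without untreated replicate 3 and -0.89 with scaling by library size alone, each short of the minimum. NOTCH1 had 94.4, 81.7 and 86.3 and 133, 144 and 162 CPM (log2FC 0.74, SE 0.07), higher without overlap at a fold under 2, and HDAC1 273, 283 and 283 and 360.1, 359 and 378 CPM (log2FC 0.39, SE 0.05). BIRC5, survivin, was at 186, 198 and 198 and 168, 175 and 186 CPM, which overlap in 1 library (log2FC -0.14, SE 0.06, adjusted p = 0.038). IGF1R (log2FC -0.46, SE 0.10), SMARCA4 (log2FC -0.32, SE 0.06), SIRT1 (log2FC -0.27, SE 0.07) and ROCK1 (log2FC -0.16, SE 0.07) lay lower at FDR below 0.05, and MALT1 (log2FC 0.10, SE 0.08, adjusted p = 0.25) and MTOR (log2FC 0.01, SE 0.05, adjusted p = 0.87) did not pass. PRKCH had 0 untreated and 10 treated reads and was not tested.

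The median change by the span of the gene, over 11563 protein coding genes and with no test, stayed near 0. The median log2 fold change was 0.05 for genes under 5 kb, 0.04 from 5 to 20 kb, -0.01 from 20 to 50 kb, -0.02 from 50 to 100 kb, 0.01 from 100 to 200 kb and 0.00 above 200 kb. The share induced was 14.5% from 5 to 20 kb and 9.67% above 200 kb.

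The response of MV-4-11 was set beside that of MOLM-13, the other line of the series with a KMT2A fusion and the FLT3 duplication. Each line received its own IC50, so that dose and line cannot be told apart. The difference of the log2 fold changes (MV-4-11 minus MOLM-13) was tested in a fit of 12 libraries, while log2FC values of single lines are from a fit of 60 libraries of 10 lines. Of 14933 genes 876 had a higher response in MV-4-11 (5.87%) and 214 a lower one (1.43%). DUSP9, a MAP kinase phosphatase, had 0.21, 0.399 and 0.313 CPM untreated and 1.87, 2.03 and 2.63 CPM treated in MV-4-11, a log2 fold change of 2.86 against -5.23 in MOLM-13 and a difference of 8.08 (SE 1.07, adjusted p = 5.50e-05). OLR1 differed by 6.33 (SE 1.41, adjusted p = 0.0036), AIF1L by 6.29 (SE 1.64, adjusted p = 0.0085), GPR84, a receptor of medium-chain fatty acids, by 5.17 (SE 0.44, adjusted p = 3.38e-07) and OTOF by 5.13 (SE 0.97, adjusted p = 7.79e-04), all called higher. With 0 untreated reads of OLR1 in MV-4-11 its fitted difference depends on the prior count and is not a bound.

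The lowest differences from MOLM-13 included 2 genes that were called in MV-4-11, FOSB and APOBEC3H. NEUROG3, a transcription factor of endocrine development, had 5.04, 6.55 and 6.20 and 3.54, 4.67 and 5.05 CPM in MV-4-11 and differed by -3.99 (SE 0.87, adjusted p = 0.0025). FOSB, repressed in MV-4-11 with -1.83 and at 1.19 in MOLM-13, differed by -2.98 (SE 0.26, adjusted p = 4.51e-07). APOBEC3H, a cytidine deaminase, rose in MV-4-11 from 14.1, 15.5 and 12.9 to 36.1, 37.5 and 28.3 CPM and still differed by -2.49 (SE 0.21, adjusted p = 3.19e-07). PTPN14, a phosphatase, differed by -2.46 (SE 0.17, adjusted p = 4.40e-08), and NUAK1, a kinase, by -2.41 (SE 0.85, adjusted p = 0.043), a call that was lost in DESeq2 and without any 1 of the 6 MV-4-11 libraries.

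Many cell cycle genes had lower log2FC values in MOLM-13 than in MV-4-11. Of 46 G1/S and replication genes 20 had a higher response in MV-4-11 than in MOLM-13 (median difference 0.92 against 0.06 over all genes tested), and of 35 G2 and mitosis genes 8 had a higher one (median 0.82). Over all genes tested 5.87% were higher and 1.43% lower. MKI67 had -0.21 in MV-4-11 and -1.49 in MOLM-13, a difference of 1.32 (SE 0.07, adjusted p = 9.28e-09), and CCNE2 1.31 and -0.52, a difference of 1.87 (SE 0.11, adjusted p = 1.63e-08). Of 26 repair genes 7 were higher (median 0.62). In the damage response list 4 of 25 were lower (median -0.63): CDKN1A by -1.15 (SE 0.11, adjusted p = 1.07e-06), TNFRSF10B by -1.01 (SE 0.09, adjusted p = 5.03e-07), GADD45A by -1.13 (SE 0.13, adjusted p = 7.97e-06) and ZMAT3 by -1.44 (SE 0.17, adjusted p = 7.46e-06). Of 29 interferon response genes 1 was lower and 9 were higher, among them IFIT1 by 5.31 (SE 1.15, adjusted p = 0.0024) and IFIT3 by 4.53 (SE 0.72, adjusted p = 1.77e-04). IFIT1 and IFIT3 had few untreated reads in MV-4-11 and passed the filter of its own fit only through the etoposide libraries. Of 14 chemokines and cytokines 6 were higher. The 23 genes of the KMT2A fusion programme had a median difference of 0.01.

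Against the mean response of 9 other lines, in a fit of 60 libraries, 418 of 19974 genes had a higher response in MV-4-11 (2.09%) and 198 a lower one (0.991%). OCI-AML2 was not used, since the study discarded its treated libraries, and the doses differ by line. The spread in this test is that between libraries, so it describes these 9 lines, and it uses the same MV-4-11 libraries as the comparison with MOLM-13. CRACR2B, a regulator of calcium entry, went from 0.052, 0.114 and 0.104 to 2.28, 3.15 and 5.26 CPM in MV-4-11, and its difference was 4.05 (SE 0.63, adjusted p = 2.75e-06), with log2 fold changes of 0.16 to 2.55 in the others. The difference was 3.84 (SE 1.04, adjusted p = 0.0068) for OTOF, 3.63 (SE 0.26, adjusted p = 1.84e-15) for PRAM1, an adaptor of myeloid cells, 3.30 (SE 0.52, adjusted p = 4.23e-06) for TCN2, the carrier of vitamin B12, and 3.17 (SE 0.80, adjusted p = 0.0036) for IFIT3. In all 5 MV-4-11 ranked 1 of 10 lines. BCL2A1 also ranked 1, with a difference of 5.20 (SE 1.21, adjusted p = 0.0016) that rests on 0 untreated reads in MV-4-11. Of 32 interferon response genes 2 were higher and 2 lower (median difference 0.07). The median log2FC of this list was 1.10 in MV-4-11 and 0.55 to 0.71 in HL-60, NOMO-1, MOLM-13 and OCI-AML3. It was higher, 1.33 to 3.56, in MONO-MAC-6, THP-1, KASUMI-1, NB-4 and F-36P. Of 24 chemokines and cytokines 2 were higher and 1 lower (median difference 0.28).

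The lowest differences from the 9 lines were -2.82 (SE 0.32, adjusted p = 2.48e-09) for FOSB, -2.37 (SE 0.37, adjusted p = 3.19e-06) for SLC6A9, a glycine transporter, -2.36 (SE 0.51, adjusted p = 7.29e-04) for CACNA1D, a calcium channel gene, -2.24 (SE 0.28, adjusted p = 2.83e-08) for RAB38 and -2.08 (SE 0.18, adjusted p = 1.96e-13) for CTH, the cystathionine lyase of cysteine synthesis. SLC6A9 fell in MV-4-11 from 8.29, 8.89 and 7.97 to 2.73, 2.87 and 2.76 CPM, and the other lines ranged from -2.40 to 5.03 on the log2 scale. CTH fell from 9.39, 9.23 and 9.02 to 3.83, 2.87 and 3.55 CPM, with -0.81 to 2.86 in the others. CACNA1D had 4.20, 3.08 and 3.02 and 3.09, 3.03 and 2.17 CPM in MV-4-11, which overlap, against a log2FC of 0.34 to 5.68. CDKN1A rose in MV-4-11, and its log2FC of 1.91 was the lowest of the 10 lines (2.46 to 5.45 in the others), with a difference of -1.61 (SE 0.16, adjusted p = 4.95e-11).

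A number of stress genes had lower log2FC values in MV-4-11 than in the mean of the other lines. Of 12 integrated stress response genes 7 had a lower response in MV-4-11 (median difference -1.05 against 0.02 over all genes tested). Over all genes tested 0.991% had a lower one. Against MOLM-13 alone, 2 of the 12 had a higher response in MV-4-11 and 0 a lower one (median difference 0.18), and the medians of the list's log2FC were -0.50 in MV-4-11 and -0.62 in MOLM-13. ASNS had a log2FC of -1.31 in MV-4-11 and -1.23 to 2.09 in the others, a difference of -1.77 (SE 0.14, adjusted p = 2.47e-14). CHAC1, which degrades glutathione, had -0.90 against -1.92 to 4.02, a difference of -1.98 (SE 0.23, adjusted p = 2.92e-09), and TRIB3, a pseudokinase under ATF4, -0.40 against -1.12 to 4.09, a difference of -1.53 (SE 0.18, adjusted p = 4.74e-09). Of 21 AP-1 and early response genes 8 were lower (median -0.47): beside FOSB, ATF3 by -1.81 (SE 0.23, adjusted p = 2.56e-08), DUSP1 by -1.67 (SE 0.26, adjusted p = 2.02e-06), KLF6 by -1.59 (SE 0.16, adjusted p = 8.87e-11), EGR1 by -1.38 (SE 0.36, adjusted p = 0.0055), FOS by -1.26 (SE 0.21, adjusted p = 1.55e-05), JUN by -1.25 (SE 0.30, adjusted p = 0.0018) and MAFF by -1.18 (SE 0.28, adjusted p = 0.0017). The median difference was -0.16 for the G2 and mitosis list, -0.11 for the G1/S list and 0.01 for the MYC network.

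**Figure D1:**
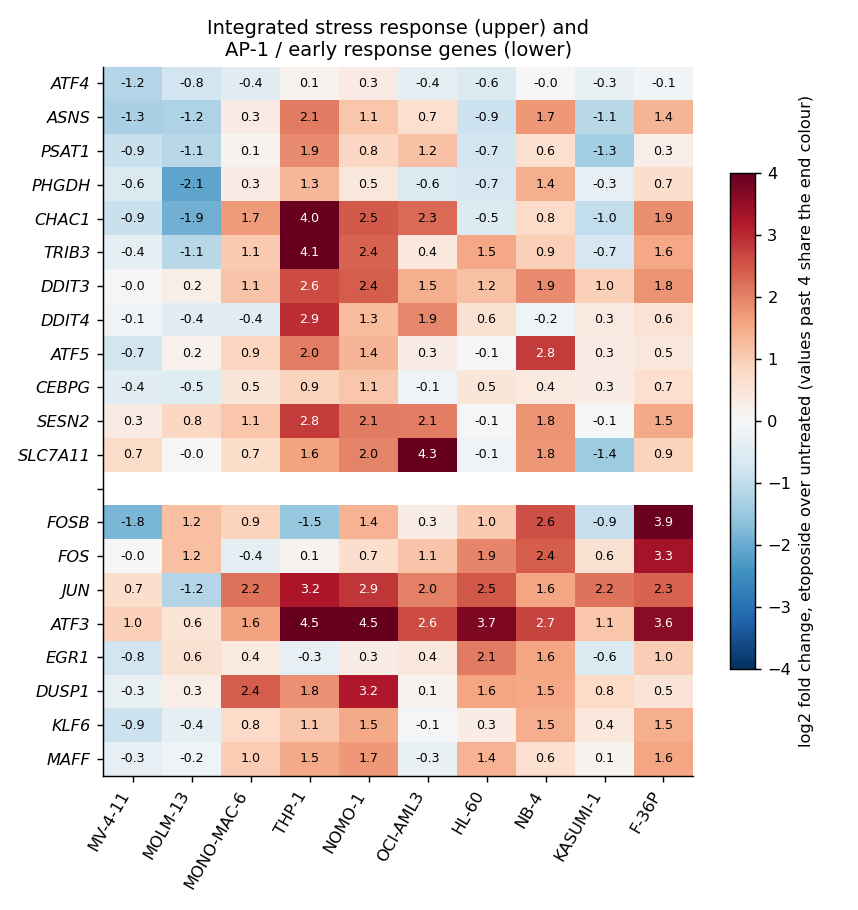
Log2 fold changes of etoposide over untreated (colour and number) in MV-4-11 and 9 other lines for the 12 integrated stress response genes (upper block) and the 8 AP-1 and early response genes whose response in MV-4-11 differed from the mean of the others (lower block). MV-4-11 and MOLM-13 are blue for ASNS (-1.31 and -1.23), where THP-1, NB-4 and F-36P are red (2.09, 1.74 and 1.37).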

How the data were processed

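RNA-seq (TruSeq stranded mRNA libraries) was measured in 66 libraries of 11 AML cell lines, of which 6 are from MV-4-11 (3 per group). Per the labels and the study's methods, the authors checked reads with FastQC 0.11.5, aligned them with STAR 2.5.3a to GRCh38.p7 with gencode 25, and deposited raw counts per gene as STAR writes them, one file per sample. For their own tests, which were not used here, they name edgeR 3.20.1. Each deposited file holds 1 column of counts, and which of STAR's columns it is was not given in the sources used here. Of 707 genes wholly inside an exon of an opposite-strand gene in gencode 44, 217 had reads in MV-4-11. Counting without strand would have set these aside as ambiguous where gencode 25 has the same exons, which was not checked. Of 58037 gene identifiers, 45 Y copies of pseudoautosomal genes (0 reads) were left out, and 56948 of the other 57992 were found in gencode 44, the source of coordinates and biotypes (GRCh38).

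Counts were tested in R 4.3.3 with edgeR 4.0.16 (filterByExpr with a minimum count of 10 and total of 15, TMM, quasi-likelihood test, Benjamini-Hochberg adjustment over all genes of the fit). Adjusted p-values come from this test. The MOLM-13 comparison used an interaction contrast over 12 libraries, and the comparison with 9 lines a contrast over 60 libraries. Ratios of genes with 1 to 3 untreated reads have exact conditional intervals for counting error. The tests were checked on simulated data. Alternatives were other normalizations, filters and tests (DESeq2 1.42.0, the exact test, glmTreat), 1 fit of 60 libraries, a replicate block and leaving out each library. Tables were made in Python 3.11.15. The series' design gives the libraries of a group as biological replicates, and the p-values measure the spread between these samples.

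The gene lists were chosen with earlier results of these data known. Named were the 10 highest and 10 lowest called protein coding genes of at least 1 CPM without overlap, the 5 each way of at least 50 CPM, up to 4 called members and the member with the most reads of each list, the 5 highest and lowest response differences to each reference, the genes the study named, the topoisomerases, KMT2A, AFF1 and FLT3, and 5 non-coding genes each way. Other genes were chosen after their values were seen. A few genes that this rule or the lists hold are counted but not reported here. The promoter windows are from RefSeq (GRCh38.p14), with motifs for interferon and MYC added after the values were seen.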

Additional observations from a re-analysis of the deposited data

Results flagged for a closer look

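The response of MV-4-11 was compared with that of MOLM-13 and with the mean of 9 other lines, and the difference itself was tested in both cases (edgeR quasi-likelihood test, FDR below 0.05 and a difference above 1 on the log2 scale). Both comparisons use the same 6 MV-4-11 libraries, the dose differed by line, and the causes were not tested. Against MOLM-13 the differences in log2FC were 8.08 for DUSP9, 6.33 for OLR1, 6.29 for AIF1L, 5.17 for GPR84 and 5.13 for OTOF, all higher in MV-4-11. On the other side stood NEUROG3 at -3.99, FOSB at -2.98, APOBEC3H at -2.49, PTPN14 at -2.46 and NUAK1 at -2.41. Those of OLR1, AIF1L, OTOF and DUSP9 rest on few untreated reads in MV-4-11 (0, 7, 3 and 17 over the 3 libraries). The difference of DUSP9 also holds a fall in MOLM-13, larger on the log2 scale than the rise in MV-4-11.

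Against the mean of the 9 lines the differences were 4.05 for CRACR2B, 3.84 for OTOF, 3.63 for PRAM1, 3.30 for TCN2 and 3.17 for IFIT3. Those of CRACR2B, OTOF and IFIT3 rest on few untreated reads in MV-4-11. The lowest were -2.82 for FOSB, -2.37 for SLC6A9, -2.36 for CACNA1D, -2.24 for RAB38 and -2.08 for CTH. For SLC6A9, MV-4-11 ranked 8 of 10 lines.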

How the results depend on the processing

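The 2120 calls in MV-4-11 (1752 induced, 368 repressed) stayed within 1.5 times under RLE normalization (2116), library size alone (2255), no filter on low counts (2960), the exact test (2122), DESeq2 (2040) and 1 fit of 60 libraries (2888). Without a fold change minimum there were 8939 (4687 and 4252), with a mean of at least 5 CPM required 778 (637 and 141, with fewer genes tested), and by glmTreat 1161 (1049 and 112). The 1090 response differences from MOLM-13 became 4133 without a minimum and 490 with the filter at 5 CPM, and the 616 from the 9 lines 2637 and 341. Leaving out 1 library gave 2069 to 2322 calls, 1719 to 1923 induced, 350 to 459 repressed, 965 to 1135 differences from MOLM-13 and 529 to 606 from the 9 lines.

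Same-numbered libraries of the 2 groups share only a number: their deviations correlated at r = 0.129, 0.0298 and 0.1004, though every library correlated best with its own number, a hint from the data and not the design. With the replicate number as a block there were 2125 calls (1754 induced, 371 repressed), 1151 differences from MOLM-13 and 586 from the 9 lines, and no named gene changed its call.

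Of 159 named genes, 3 with changes near 0 turned sign under library size alone (MCL1 0.050, TNFRSF10B 0.117, FOSL2 0.064), and TNFRSF10B, at -0.01, ranged from -0.059 to 0.054 with 1 library left out. Under library size alone the medians by gene span moved from between -0.02 and 0.05 to 0.17, 0.17, 0.12, 0.11, 0.13 and 0.13 from the shortest to the longest genes, as the median of all genes moved to 0.14. The signs of the medians of the break repair, FLT3 and STAT5, AP-1 and histone lists turned with it, and RLE turned none. In genes under 1 CPM, few reads limit the precision of a fold change.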
